A study of Rattus norvegicus with 20 samples.

Results

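The genes described here are 9 core components of Toll-like receptor and NF-kB signalling, chosen by name with earlier results of these data known. They are Ly96, Tlr7, Map3k7, Chuk, Ikbkb, Ikbkg, Nfkb1, Nfkb2 and Rela. They are 9 of the 750 endogenous genes on the probe panel, and all 9 had the mean raw count of at least 20 over 20 libraries that was required for testing. The libraries came from 10 female rats subjected to controlled cortical impact, in which a piston bruises the cortex as a model of traumatic brain injury, and each rat gave 1 sample of the injured (ipsilateral) hemisphere and 1 of the opposite (contralateral) hemisphere. Some of the animals had received L-myc immortalized human neural stem cells through the nose and others vehicle, but the labels give no animal's treatment, and both hemisphere groups therefore mix the 2 treatments. No uninjured animal is among the samples, so the contralateral tissue, itself from an injured brain, was the reference. Strain, age and the time between injury and sampling are not given in the sources used here. Counts came from the NanoString nCounter, which counts barcoded probes bound to RNA one by one without amplification.

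Toll-like receptors detect microbial molecules and molecules set free by damaged cells, and in the brain microglia are known as their main carriers. Bound receptors signal through adaptors to the kinase TAK1, which activates the IkB kinase complex, and this complex marks inhibitor proteins for destruction so that NF-kB dimers enter the nucleus and switch on genes of inflammation and cell survival. The pathway is thus run largely by phosphorylation and protein breakdown, which counts of RNA do not measure. LY96 (MD-2) is the lipopolysaccharide-binding partner of TLR4, and TLR7 senses single-stranded RNA in endosomes. Map3k7 encodes TAK1, Chuk and Ikbkb the catalytic kinases IKK-alpha and IKK-beta, and Ikbkg the scaffold NEMO. Nfkb1 and Nfkb2 encode the precursors p105 and p100, which are cut to the DNA-binding subunits p50 and p52, and Rela encodes the activating subunit p65.

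Promoter sequences of 7 of the 9 genes were found in the RefSeq-derived table for the rat build GRCr8, which takes 1 transcript start a gene. The 250 bases before that transcript start were searched on both strands for the NF-kB consensus, a motif of 10 bases. In 2 of the 7 genes, Chuk and Rela, the window ends at the listed start of the gene. The windows of Map3k7, Ikbkg, Nfkb1 and Nfkb2 lie inside the gene's listed span, before the start of a transcript that begins further in, and that of Tlr7 lies partly inside. The motif was found in 1 of the 7 windows, that of Nfkb2, and in 6.33% of all 33469 windows (12.2% of the 148 windows of tested genes). The Nfkb2 transcript begins 2364 bases into the gene, and the match begins 20 bases before it. Shown are the 30 bases around the match, on chr1:255108344-255108373 (plus strand), with the match in capitals, and the 2 windows that adjoin the gene start, Chuk on chr1:252944274-252944523 (minus strand) and Rela on chr1:212354086-212354335 (plus strand), which hold no match. All are written 5′ to 3′.
Nfkb2: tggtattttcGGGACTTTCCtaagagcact
Chuk: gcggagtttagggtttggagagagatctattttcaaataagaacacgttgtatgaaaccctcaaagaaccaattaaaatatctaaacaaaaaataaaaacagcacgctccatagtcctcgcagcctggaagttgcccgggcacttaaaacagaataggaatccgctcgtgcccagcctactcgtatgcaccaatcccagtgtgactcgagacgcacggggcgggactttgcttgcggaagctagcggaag
Rela: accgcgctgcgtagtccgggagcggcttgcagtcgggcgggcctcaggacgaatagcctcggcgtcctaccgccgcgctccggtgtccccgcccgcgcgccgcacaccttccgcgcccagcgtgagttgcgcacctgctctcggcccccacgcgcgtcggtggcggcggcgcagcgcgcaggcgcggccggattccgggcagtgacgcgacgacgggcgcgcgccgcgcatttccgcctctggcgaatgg
A match is a description of the letters only, and binding of any factor was not measured.

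Total counts over the 770 gene probes ran from 34454 to 319964 per library, and the 8 negative control probes averaged 5.79 ipsilateral and 4.76 contralateral counts. Values below are scaled counts, that is raw counts divided by a library factor from 17 housekeeping genes (0.289 to 4.27). Of the 9 genes, 8 were read above the highest negative control of their own library in 20 of 20 libraries, and Nfkb2 in 18 of 20. The probes carry accessions of mouse transcripts, 0 of 770 of which match a rat RefSeq transcript, and how far the probes fit rat transcripts was not tested. A second deposited table holds the same counts with each column under another animal's number of the same hemisphere (20 of 20 columns). Its pairing of hemispheres is the same in 10 of 10 animals, so paired results do not depend on it, but the animal numbers used below are those of the main table. Nefl, a neurofilament gene of neurons, was read at 576 ± 158 ipsilateral and 698 ± 120 contralateral scaled counts (SD, n = 10 each), and S100b, the 1 astrocyte marker of the list on the panel, lay above the negative controls in 0 of 20 libraries.

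The comparison of the hemispheres asks whether the transcripts of this pathway differ between the injured and the opposite side of the same brains. With housekeeping scaling, 4 of the 9 genes rose on the injured side (Ly96, Nfkb2, Ikbkb and Chuk) and 0 fell (edgeR quasi-likelihood test with the animal as a block, Benjamini-Hochberg adjusted over 193 tested genes). Of all tested genes 47.2% were called higher and 10.4% lower in the same fit, so 4 of 9 (44.4%) is near the background and is not a result about this pathway. The median log2 fold change of the 9 genes was 0.40, against 0.30 over all 193. With no filter on low counts the order was the opposite, with 0.40 over the 9 genes and 0.56 over all 750. The 750 include genes read near the negative controls, and 88.93% of them were above 0, against 73.58% of the 193. The part of background and of the library factors in that median was not tested. Ly96 and Nfkb2 stood 0.68 and 0.52 above the median of the 193, Tlr7, Ikbkg, Rela, Nfkb1 and Ikbkb between 0.07 and 0.11 above it, and Chuk and Map3k7 below it (-0.07 and -0.09). Above the median of the genes tested thus stood 7 of the 9, against 6 with a minimum mean count of 10 or without animal 6, 5 with 4 animals of unequal library factors left out, and 2 with no filter. Ly96 and Ikbkb were higher in 9 of 10 animals, as were 30.1% of the tested genes in at least 9. In tissue homogenates, more cells of a type and more RNA per cell cannot be told apart.

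**Figure D1:**
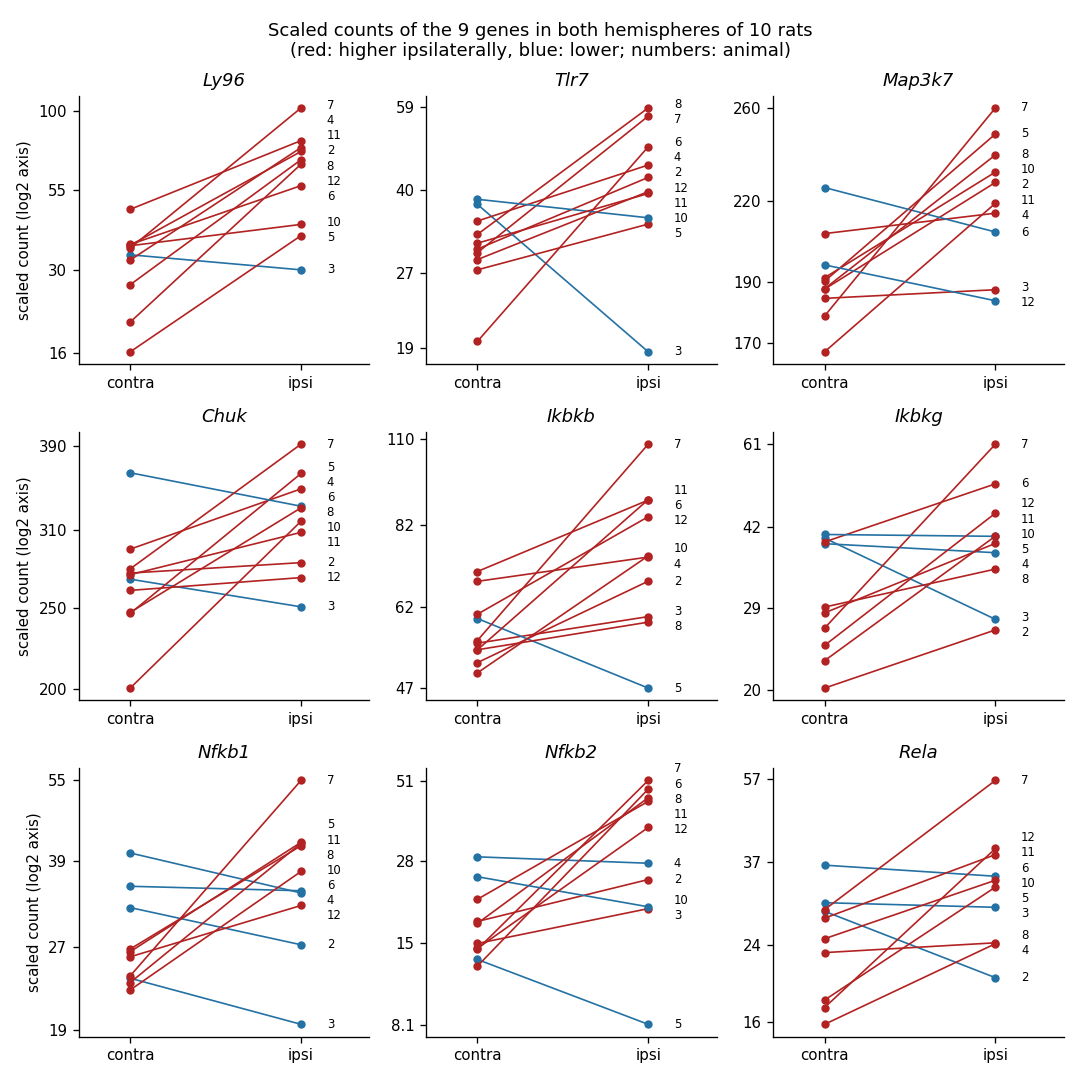
Scaled counts (vertical log2 axes, a separate range for each gene) of the 9 genes in the contralateral and ipsilateral library of each of 10 rats, joined by a line, red where the ipsilateral value is higher and blue where it is lower. Ly96 is higher ipsilaterally in 9 of 10 animals, and animal 7 has the highest ipsilateral value of 8 of the 9 genes.

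At the receptor level, Ly96 lay between 16.1 and 47.5 contralateral scaled counts (median 34.5) and between 30 and 103 ipsilateral ones (median 68.1). The groups overlap, with 7 of the 10 ipsilateral libraries above the highest contralateral one. The number was also 7 for Tlr7, which was not called, so it does not set Ly96 apart. How many of all tested genes reach it was not counted. The means were 63.7 ± 21.9 against 32.0 ± 9.0 (SD, n = 10 each), a 1.97-fold increase (log2 fold change 0.98 ± 0.18 SE, edgeR adjusted p = 0.00116) in 9 of 10 animals. The exception was animal 3, with 30 ipsilateral and 33.6 contralateral scaled counts, and animal 10 differed little (42.4 against 36). Tlr7 had 18.7 to 58.9 ipsilateral scaled counts (median 41.1) and 19.6 to 38.3 contralateral ones (median 30.7). It was higher in 8 of 10 animals but did not pass (log2 fold change 0.41 ± 0.19 SE, edgeR adjusted p = 0.0798). Animal 3 again went the other way, with 18.7 ipsilateral against 37.4 contralateral scaled counts, the lowest ipsilateral Tlr7 value of the 10. Without animal 3 the log2 fold change of Tlr7 was 0.56 and its edgeR adjusted p 0.00743, while leaving out any other animal gave 0.32 to 0.47 with no call (edgeR adjusted p 0.0669 to 0.184).

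Among the kinases, Map3k7 (TAK1) had 184 to 260 ipsilateral scaled counts (median 223) and 167 to 225 contralateral ones (median 189). Its groups overlap widely, and its log2 fold change of 0.21 ± 0.09 (SE) missed the threshold (edgeR adjusted p = 0.0504). Chuk (IKK-alpha) had 251 to 392 ipsilateral scaled counts (median 323) and 200 to 362 contralateral ones (median 272). Its rise of 0.24 ± 0.09 (SE) on the log2 scale passed narrowly (edgeR adjusted p = 0.0470), in 8 of 10 animals, and leaving out any of 8 single animals, all but 3 and 6, ended the call. Ikbkb (IKK-beta) had 47.0 to 108 ipsilateral scaled counts (median 73.7) and 49.5 to 70.0 contralateral ones (median 55.1). It rose 1.30-fold in 9 of 10 animals (log2 fold change 0.38 ± 0.13 SE, edgeR adjusted p = 0.0257), with animal 5 the exception at 47.0 against 59.6. Its call was lost without animal 7, 11 or 12. Ikbkg (NEMO) had 26.3 to 61.1 ipsilateral scaled counts (median 39.6) and 20.2 to 40.5 contralateral ones (median 28.8), and its log2 fold change of 0.40 ± 0.17 (SE) did not pass (edgeR adjusted p = 0.0599, higher in 7 of 10 animals).

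Among the NF-kB subunits, Nfkb2 (p100) lay between 12.6 and 28.8 contralateral scaled counts (median 16.2) and between 8.11 and 51.3 ipsilateral ones (median 31.7). Its injured hemispheres were spread apart, at 36 to 51.3 in animals 6, 7, 8, 11 and 12, while the remaining 5 had 8.11 to 27.4. The means were 32.3 ± 14.6 against 17.9 ± 5.4 (SD, n = 10 each), a 1.77-fold increase in 7 of 10 animals (log2 fold change 0.82 ± 0.26 SE, edgeR adjusted p = 0.0167). At its lowest, the raw count of Nfkb2 was 5, in the ipsilateral library of animal 5, within the range of the negative controls. Its mean over all 20 libraries was 27.6 raw counts, the lowest of the 9 genes and close to the minimum of 20. Its call was lost without animal 7 (log2 fold change 0.67, edgeR adjusted p = 0.0505). After subtraction of each library's negative control mean the log2 fold change was 0.71 and the call was also lost (limma adjusted p = 0.148, against 0.0336 with limma and no subtraction). Nfkb1 (p105) had 19.5 to 54.9 ipsilateral scaled counts (median 35.8) and 22.5 to 40.3 contralateral ones (median 26.2), and was higher in 6 of 10 animals (log2 fold change 0.38 ± 0.18 SE, edgeR adjusted p = 0.0787). Rela (p65) had 20.2 to 56.7 ipsilateral scaled counts (median 33.0) and 15.8 to 36.4 contralateral ones (median 26.2), and was higher in 7 of 10 animals (log2 fold change 0.41 ± 0.18 SE, edgeR adjusted p = 0.0642). Exact two-sided sign-flip permutation tests of the paired log2 differences, unadjusted, gave p = 0.00391 for Ly96 and between 0.0156 (Ikbkb) and 0.0781 (Tlr7) for the others (n = 10 animals).

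**Figure D2:**
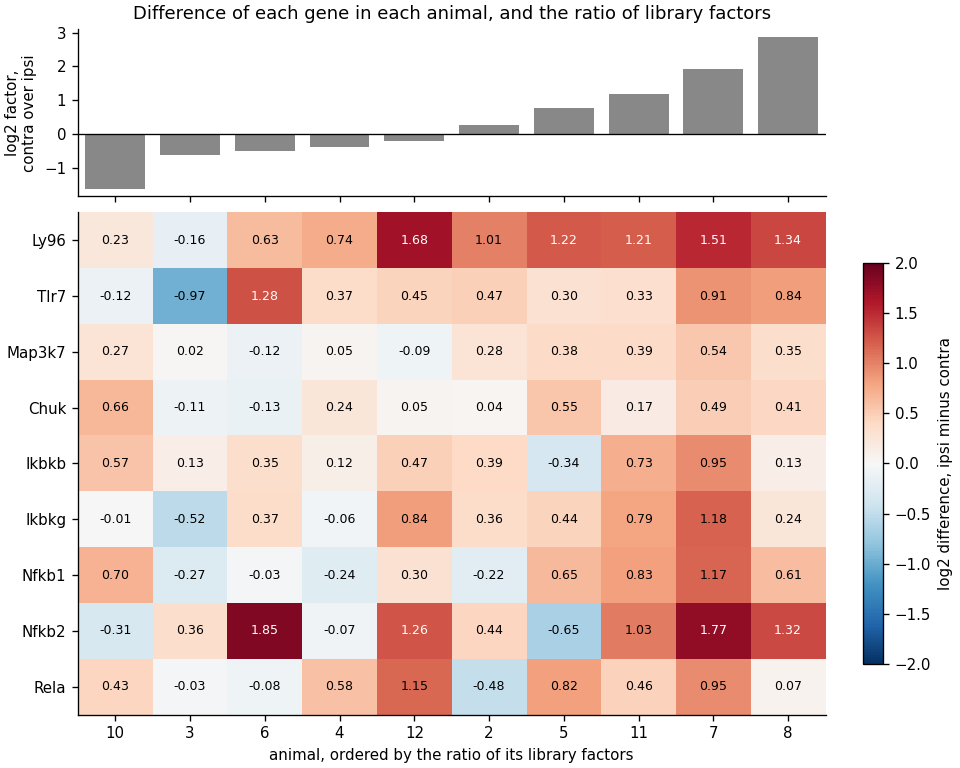
Upper panel: log2 ratio of the contralateral over the ipsilateral library factor in each animal. Lower panel: log2 difference (ipsilateral minus contralateral, scaled count + 1) of each gene, with animals ordered by that ratio. All 9 genes are higher in animals 7, 8 and 11, where the contralateral factor was 2.27 to 7.37 times the ipsilateral one, and 3 of 9 in animal 3. Of all tested genes, 73.58% to 75.65% were higher in animals 7, 8 and 11 and 32.12% in animal 3.

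The 10 brains differed in how many of the 9 genes were higher on the injured side. In animals 7, 8 and 11 the number was 9 of 9, with median log2 differences over the 9 genes of 0.95, 0.41 and 0.73. Of all tested genes, 75.65%, 74.09% and 73.58% were higher in these animals, with medians of 0.74, 0.66 and 0.35. In animal 3 the number was 3 of 9, with a median of -0.11, against 32.12% and -0.098 over all tested genes. In the other 6 animals the number ran from 5 to 8, against 58.55% to 78.76% of all tested genes. The tested genes as a whole thus also differed between animals. Of all 90 pairs of a gene and an animal, 76.7% were higher ipsilaterally, against 67.0% over all tested genes. The ratio of library factors moved with this pattern: the contralateral housekeeping factor was 3.78 times the ipsilateral one in animal 7, 7.37 times in animal 8 and 2.27 times in animal 11, whereas the remaining 7 animals had 0.32 to 1.71 times. In total counts the contralateral library had 2.12, 4.29 and 1.61 times the ipsilateral one in animals 7, 8 and 11, and 0.32 to 1.47 times in the remaining 7. The sign of scaled and raw differences was opposite in 3 of 10 animals for Ly96 and Ikbkb and in 5 to 7 for the other genes. With the 4 animals left out whose factors differ more than 2-fold (7, 8, 10 and 11), an alternative chosen after seeing the data, 0 of the 9 genes were called higher (9.33% of all tested genes), with Ly96 at 0.85 (edgeR adjusted p = 0.0524), Nfkb2 at 0.60 (0.215), Ikbkb at 0.20 (0.386) and Chuk at 0.11 (0.556). That fit rests on fewer animals, and the part of library depth and of the factors in the differences was not tested. Single animals mattered as well: 9 of 9 genes were called higher without animal 3 (53.9% of all tested genes), 1 without animal 7 (37.8%) and 2 without animal 11 (39.4%). Ly96 kept its call in each of the 10 fits that left out 1 animal (log2 fold change 0.90 to 1.1). Without the animal block 8 of 9 genes were called higher, all but Rela (49.7% of all tested genes).

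**Figure D3:**
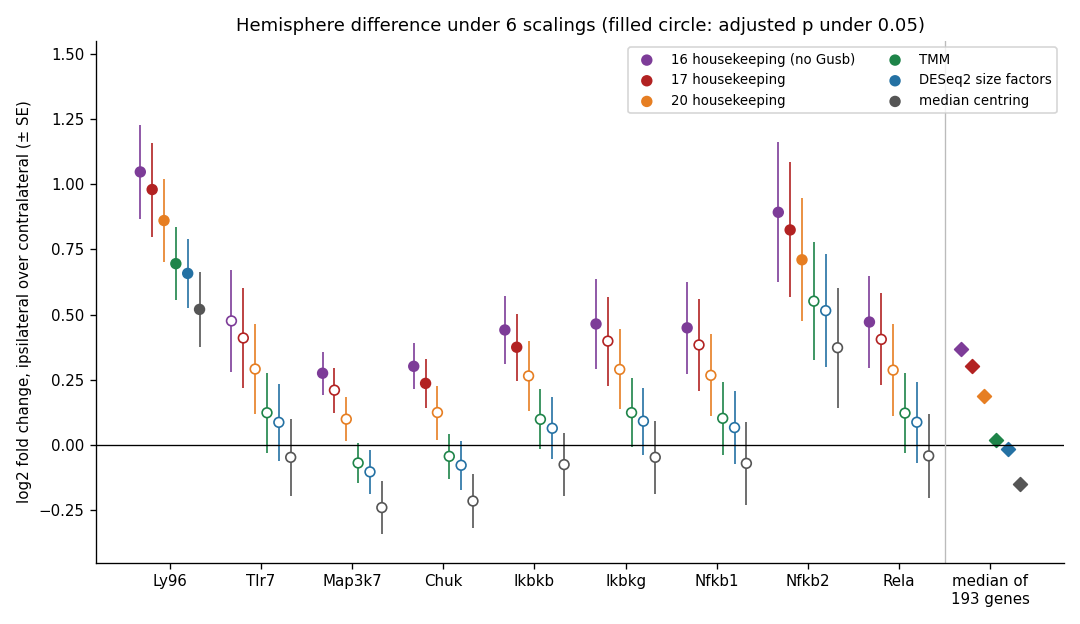
Log2 fold change (vertical axis, ± SE) of each gene under 6 scalings, filled circles where the edgeR adjusted p is under 0.05, and, at the right, the median log2 fold change of the 193 tested genes under the same scalings (diamonds). Ly96 is above 0 and filled under each of the 6, and Map3k7 and Chuk lie below 0 under 3.

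The sign of 7 of the 9 differences turned with the scaling. The 193 tested genes had a median log2 fold change of 0.37 when Gusb was dropped from the housekeeping genes, 0.30 with the 17, 0.19 with all 20, 0.02 after TMM, -0.01 after scaling by DESeq2's factors and -0.15 after median centring. Ly96 was called higher under each of these 6 scalings, from 0.52 (edgeR adjusted p = 0.00756) with median centring to 1.05 without Gusb. The markers Cd68, Ptprc, Fcer1g, Mrc1, Blnk and Cdh5 were also called higher under all 6. How many of all tested genes were so called was not counted. With the 17 housekeeping genes, Ly96 had rank 36 and Nfkb2 rank 43 of the 193 by log2 fold change. Nfkb2 was above 0 under 6 of 6, from 0.37 to 0.89, and was called under the 3 housekeeping sets. Ikbkb and Chuk were called under 2 of 6, while Map3k7, Ikbkg, Nfkb1 and Rela were called under 1 (the set without Gusb) and Tlr7 under 0. Ikbkb, Ikbkg, Nfkb1, Rela and Tlr7 were below 0 with median centring, and Map3k7 and Chuk with median centring, TMM and DESeq2's size factors. In counts, 8 of the 9 were called higher without Gusb (56% of all tested genes), 2 with all 20 housekeeping genes (39.4%), and 1, Ly96, with TMM (30.1%), DESeq2's size factors (29%) or median centring (20.7%).

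**Figure D4:**
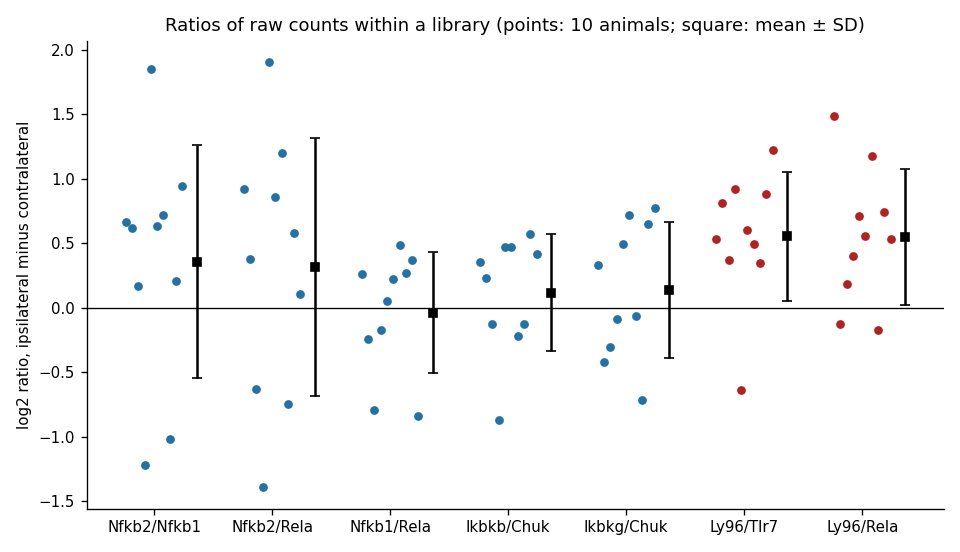
Difference between hemispheres in the log2 ratio of 2 raw counts of the same library (vertical axis), 1 point an animal in order of animal number, with the mean and SD of 10 animals as a black square and bar. Ly96/Tlr7 and Ly96/Rela (red) lie above 0 in 9 and 8 of 10 animals.

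Ratios of 2 raw counts within a library need no scaling factor, and 7 of them were tested for unequal change of pathway members. Ly96 increased relative to Tlr7, with a log2 ratio of 0.57 ± 0.31 ipsilaterally and 0.01 ± 0.46 contralaterally (SD, n = 10 each). The difference of 0.55 ± 0.50 (SD) was above 0 in 9 of 10 animals (exact two-sided sign-flip permutation p = 0.0137, adjusted over the 7 ratios 0.0479). Animal 6 was the exception at -0.64. Ly96 also increased relative to Rela, by 0.55 ± 0.52 (SD) in 8 of 10 animals (exact permutation p = 0.00977, adjusted 0.0479). Both results are narrow: the first was lost without any single animal but 6 and the second without any single animal, with adjusted p from the exact permutation tests of up to 0.0957 in either case. The other 5 ratios did not pass. For Nfkb2 over Nfkb1 the difference was 0.36 ± 0.91 (SD, 95% interval -0.29 to 1.01, 8 of 10 animals above 0, exact permutation p = 0.244, adjusted 0.499), and for Nfkb2 over Rela 0.32 ± 1.0 (-0.40 to 1.04). These intervals hold differences in either direction. For Nfkb1 over Rela the difference was -0.04 ± 0.47 (SD, interval -0.37 to 0.30). For the kinase subunits it was 0.12 ± 0.45 for Ikbkb over Chuk (interval -0.21 to 0.44) and 0.14 ± 0.53 for Ikbkg over Chuk (interval -0.24 to 0.51).

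Across the 10 animals the paired log2 differences of the 9 genes correlated with a median Pearson r of 0.40 over 36 pairs, from -0.39 (Chuk and Nfkb2) to 0.86, against a median of 0.19 over the 18528 pairs of tested genes. Genes of an animal share its 2 library factors, so these values are descriptions. The 3 tested genes most like Tlr7 were Angpt1, the ligand angiopoietin-1 (r = 0.96), Cd63, a tetraspanin of late endosomes (0.91), and Lyz2, the lysozyme of myeloid cells (0.90). Those most like Nfkb2 were Blnk, an adaptor of B cell receptor signalling (0.93), the interferon-induced Ifi44 (0.91) and the protease inhibitor gene A2m (0.90). Closest to Ly96 were the autophagy enzyme Atg7 (0.89) and the adhesion molecule Ncam1 (0.87). Ikbkg was most like Nfatc1 (0.91), Atg7 (0.90) and the immunoproteasome gene Psmb8 (0.90). The closest genes of Map3k7, Chuk, Ikbkb, Nfkb1 and Rela were Smn1 (0.89), Igf1r (0.82), Traf6 (0.75), Tnfrsf11a (0.77) and Tnfsf13 (0.81), in that order. Each r is over 10 animals, and the median r with all tested genes was 0.14 for Rela to 0.43 for Ly96.

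**Figure D5:**
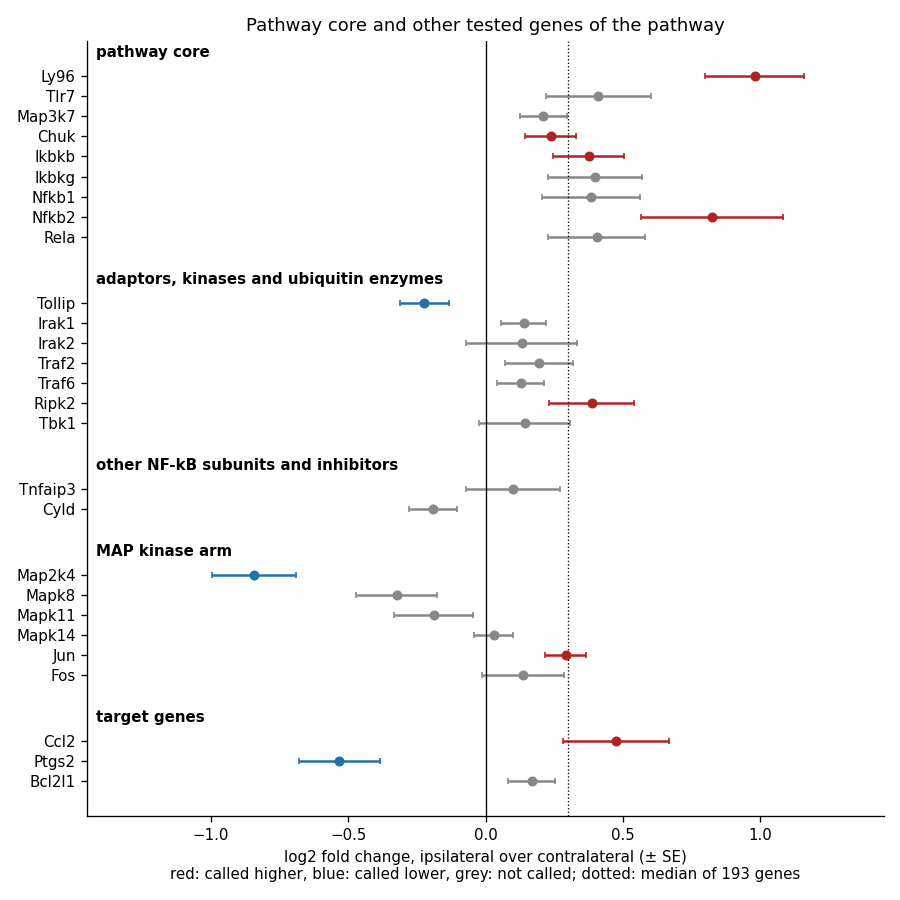
Log2 fold change (horizontal axis, ± SE, housekeeping scaling) of the 9 core genes and of the 18 other tested pathway genes, grouped by role, red where called higher, blue where called lower and grey where not called. The dotted line is the median of the 193 tested genes, 0.30, and 15 of the 18 other genes lie to its left and were not called higher.

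Of 97 further genes listed for the pathway by role, 65 were on the panel and 18 abundant enough to test. Of these, 3 rose and 3 fell, against 47.2% and 10.4% of all tested genes, with a median log2 fold change of 0.13. The receptor list could not be tested, since 0 of its 12 genes on the panel reached the minimum. Tlr3, the endosomal sensor of double-stranded RNA, came closest, with a mean of 14.7 raw counts, above the negative controls in 14 of 20 libraries. Tlr4, the signalling partner of LY96, averaged 4.10 raw counts and passed the negative controls in 0 of 20 libraries, Tlr2 in 1, the co-receptor gene Cd14 in 2 and the adaptor gene Myd88 in 0. Differences of these receptors were not tested, and low abundance and a poor fit of the mouse probes cannot be told apart here.

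Of the adaptors, kinases and ubiquitin enzymes, 7 of 17 on the panel were tested. Ripk2, the kinase that relays NOD signals to TAK1, rose from 28.2 ± 5.9 scaled counts contralaterally to 36.6 ± 8.4 ipsilaterally (SD, n = 10 each), a log2 fold change of 0.39 ± 0.16 (SE, edgeR adjusted p = 0.0488). Tollip, an inhibitor of receptor-proximal signalling, fell from 927 ± 50 contralateral to 805 ± 150 ipsilateral scaled counts (log2 fold change -0.22 ± 0.09 SE, edgeR adjusted p = 0.0492). Tollip was called lower under 5 of the 6 scalings, while Ripk2 was called higher under 2 and stood at -0.06 with median centring. The receptor-proximal kinases Irak1 and Irak2, the ubiquitin ligases Traf2 and Traf6 and the kinase Tbk1 did not pass. Their log2 fold changes were 0.13 to 0.19, and each gene was below 0 under 3 of the 6 scalings. Irak1 was called higher without Gusb and lower with median centring, and Traf6 was called lower with median centring. Of the inhibitors, Cyld, a deubiquitinase, had -0.19 ± 0.09 (SE, edgeR adjusted p = 0.0787) and was called lower under 4 other scalings, and Tnfaip3 (A20) had 0.10 ± 0.17 (SE, below 0 under 4 of 6). Nfkbia, the inhibitor that NF-kB itself induces, averaged 13.3 raw counts and was not tested, nor were Relb (11.1) and Rel (5.05). In the MAP kinase arm below TAK1, 1 of 6 tested genes rose (Jun, 0.29 ± 0.07 SE, called under 2 of 6 scalings and below 0 under 2) and 1 fell (Map2k4, -0.84 ± 0.15 SE, called under 6 of 6). Mapk8, Mapk11 and Mapk14 did not pass, at -0.32, -0.19 and 0.03, but each was called lower under 3 of the 6 scalings. Fos, at 0.14, was called under 0. Of 22 target genes on the panel 3 were tested. The chemokine gene Ccl2 rose (0.47 ± 0.19 SE, called under 2 of 6 scalings) and the cyclooxygenase gene Ptgs2 fell (-0.53 ± 0.15 SE, 6 of 6). Bcl2l1 did not pass (0.17 ± 0.08 SE, edgeR adjusted p = 0.105), but was called higher without Gusb and lower with median centring. The cytokine targets Tnf, Il1b and Il6 passed the negative controls in 1, 2 and 0 of 20 libraries.

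Markers of several cell types were read on the same panel. Of 16 microglia and macrophage markers listed, 9 were on the panel and 4 were tested, and all 4 (Cd68, Ptprc, Fcer1g and Mrc1) rose, with log2 fold changes from 1.33 to 2.65 and calls under 6 of 6 scalings. Their list summed to 126 to 906 ipsilateral scaled counts (median 531) and 127 to 174 contralateral ones (median 151), higher in 9 of 10 animals. Trem2, a receptor of microglia, stayed under the minimum, with 13 ± 3.9 ipsilateral and 12.2 ± 4.0 contralateral scaled counts (SD, n = 10 each), higher in 5 of 10 animals and above the negative controls in 12 of 20 libraries. Itgam, Cx3cr1, Csf1r and Cd163 lay above them in 0 of 20. The within-library log2 ratio of Ly96 to Fcer1g differed by -0.35 ± 0.55 (SD) between hemispheres, below 0 in 8 of 10 animals, and that of Ly96 to Cd68 by -1.38 ± 1.04, below 0 in 9 of 10. For Ly96 to Ptprc it was -0.44 ± 1.11 (7 of 10) and for Ly96 to Mrc1 -0.27 ± 1.13 (6 of 10), so the spread exceeded the mean for 3 of the 4 markers. The ratios of Tlr7 to the 4 markers differed by -0.82 to -1.93, below 0 in 9 or 10 of 10 animals, and those of Nfkb2 by -0.50 to -1.61, in 7 to 9 of 10. These marker ratios were given no test. Of 6 endothelial markers on the panel 3 were tested, and all 3 rose (0.37 to 0.98), of which Tek stood at -0.08 with median centring. Their list summed to 151 to 388 ipsilateral and 150.5 to 266 contralateral scaled counts. The list of T and NK cell markers summed to 51.0 to 159 ipsilateral and 40.8 to 144 contralateral scaled counts, with 1 of 11 genes tested and 0 called. That of neutrophils (0 of 7 tested) summed to 32.8 to 125 and 8.44 to 67.6. Each of these 7 genes lay above the highest negative control in at most 4 of 20 libraries. The neutrophil sum thus rests on counts near the background, and the part of background and of the library factors in its spread was not tested. That of B and plasma cells (1 of 6 tested, Blnk, which rose) summed to 30.7 to 104 and 24 to 74.3. Its genes other than Blnk lay above the negative controls in at most 1 library. Nefl fell, with a log2 fold change of -0.31 ± 0.12 (SE, edgeR adjusted p = 0.0397). The part of these cells in the differences of the 9 pathway genes was not tested. Each hemisphere was counted as a set of its own, and positive controls read 1.46-fold more in the ipsilateral set. Hemisphere and counting set thus cannot be told apart.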

How the data were processed

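Tissue RNA of 20 libraries (10 animals, both hemispheres) was counted on the nCounter. The deposited values are raw counts per probe: the design text describes normalisation, but positive controls differed 2.09-fold between libraries and negative controls were not subtracted. Tool versions of the authors' processing are not given in the sources used here.

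Counts were divided by factors from the geometric mean of 17 housekeeping genes, the 3 others averaging under 20 counts. Tests covered the 193 of 750 endogenous genes whose raw counts averaged 20 or more, using edgeR 4.0.16 (quasi-likelihood test, animal as a block, Benjamini-Hochberg adjustment, threshold 0.05) in R 4.3.3. Within-library ratios used a pseudocount of 1 and the exact two-sided sign-flip permutation test over 10 animals, whose smallest p is 0.00195. Alternatives used limma 3.58.1 and DESeq2 1.42.0. Control probes were left out of library sizes and tests.

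Same-numbered libraries come from the same animal, per the labels, which is why the animal is a block. Their deviations from the group means correlated with r from -0.21 to 0.50, above 0.1 in 5 of 10 animals. The contralateral library with the highest r was the same-numbered one in 2 of 10 animals. No 2 libraries of a group agreed within sampling noise (chi-square per degree of freedom 2.12 to 144 over 90 pairs). Treatments were not compared, since the labels do not assign them to animals. The members and the gene and marker lists were chosen with earlier results of these data known. The text names the 9 genes, the called pathway genes, the tested and the best-known untested pathway genes, up to 3 tested genes most like a member (1 is not reported here), and cell type markers. Totals of 34454 to 319964 counts limit precision, and counting error alone makes genes near 20 counts uncertain.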

Additional observations from a re-analysis of the deposited data

Results flagged for a closer look

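In 3 of the 25 sets of 10 values examined for the 9 genes and the 7 ratios, 1 animal stood apart, with a gap to its neighbour of more than 0.466 of the whole range. Chance does this in about 1 set of 20. The ipsilateral Tlr7 value of animal 3 was 18.7 scaled counts, against a median of 41.1 (gap 0.52 of the range). The contralateral Tlr7 value of animal 6 was 19.6 scaled counts, against a median of 30.7 (gap 0.50). The Ly96/Tlr7 log2 ratio differed by -0.638 between the hemispheres of animal 6, against a median difference of 0.567 (gap 0.53), and it contains the low contralateral Tlr7 value of that animal, which rests on 14 raw counts.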

How the results depend on the processing

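The number of the 9 genes called higher was 4 (47.2% of all tested genes). It was 8 without the replicate block, that is without the animal pairing (49.7%), and 8 with housekeeping genes without Gusb (56%). It was 2 with all 20 housekeeping genes (39.4% of all tested genes) and 2 with no filter on low counts (13.7% of all 750). After background subtraction, tested with limma, it was 2 (42.5%), against 3 with limma and no subtraction (45.6%). It was 1 with TMM, 1 with DESeq2's size factors, 1 with median centring, 0 with the 4 pairs of unequal library factors left out (chosen after seeing the data), and 1 to 9 when 1 animal was left out. None of the 9 was called lower under any of the 23 alternatives. The lowest value was that of Map3k7 with median centring, -0.239 (edgeR unadjusted p = 0.0333, adjusted p = 0.0564).

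Of the other pathway genes, 3 were called higher as reported. Shares of all tested genes called in the same direction are in brackets. The number was 0 with TMM (30.1%), DESeq2's size factors (29%) or median centring (20.7%). It was also 0 with all 20 housekeeping genes (39.4%) or the unequal pairs left out (9.33%). It was 5 without Gusb (56%) and 1 with the DESeq2 test (46.1%), a minimum of 50 (44.9%) or a minimum of 10 (38.1%). After background subtraction, tested with limma, it was 1 (42.5%), against 3 without subtraction (45.6%). It was 1 to 3 when 1 animal was left out (37.8% to 53.9%). The number called lower (3) was 7 with TMM, 7 with DESeq2's size factors, 10 with median centring, 1 with the unequal pairs left out, and 2 to 5 when 1 animal was left out.

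Signs turned for Chuk (-0.0431 with TMM, -0.0773 with DESeq2's size factors, -0.214 with median centring) and Map3k7 (-0.0685, -0.103 and -0.239). With median centring they also turned for Ikbkb (-0.0747), Ikbkg (-0.0468), Nfkb1 (-0.07), Rela (-0.0413) and Tlr7 (-0.0469). These alternatives shift all genes by a common amount per library. Ly96 stayed called in 22 of 23 alternatives, with edgeR, limma or DESeq2 adjusted p from 8.86e-06 to 0.0524.

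The Ly96/Tlr7 ratio passed narrowly. It was 0.66 after background subtraction (exact permutation p adjusted 0.0957), 0.54 with the unequal pairs left out (0.438), and 0.48 to 0.69 when 1 animal was left out. The Ly96/Rela ratio was 0.66 (0.0957), 0.53 (0.438) and 0.45 to 0.63 under the same alternatives, and 0.55 without the replicate block (adjusted permutation p = 0.12). With the unequal pairs left out, fewer animals remain and the smallest possible p of the exact permutation test is larger. After adjustment neither Ly96 ratio could then pass unless most of the tested ratios reached that smallest p. The adjusted permutation p of 0.438 thus cannot decide whether either difference was lost. The differences themselves hardly moved from those of all animals, 0.555 for Ly96/Tlr7 and 0.549 for Ly96/Rela. Nfkb1/Rela ran from -0.0972 to 0.0498 when 1 animal was left out. The cause of these changes was not tested. Genes under the minimum count, among them 12 of 12 listed receptors on the panel, were not tested, and depth and probe fit cannot be told apart there.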
